A study of Rattus norvegicus with 9 samples.

Results

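The interleukin 1 family members described here are 9 genes, taken as the entries of the deposited matrices with the symbols Il1a, Il1b, Il1rn, Il1r1, Il1r2, Il1rap, Il1rl1, Il18 and Il33, of 32883 genes in all. They comprise 4 agonist ligands (Il1a, Il1b, Il18 and Il33), 1 receptor antagonist (Il1rn), 1 decoy receptor (Il1r2), the ligand-binding receptors Il1r1 and Il1rl1, and Il1rap, the co-receptor that both of these recruit. IL-1α and IL-1β bind Il1r1, after which Il1rap joins the complex and the adaptor Myd88 passes the signal to NF-κB. IL-33 uses Il1rl1, also called ST2, with the same co-receptor, whereas IL-18 has a receptor pair of its own. Fibroblasts are well-known responders to IL-1, and IL-33 is an alarmin held in the nucleus of stromal cells and released when they are damaged.

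RNA was sequenced from cultured fibroblasts (Fb) of 3 origins, with 3 libraries each of Fb from the epineurium, the outer sheath of the sciatic nerve (Fb-Epn), from the nerve parenchyma inside it (Fb-Par) and from abdominal skin (Fb-Skn). All cells came from wild-type (WT) male Lewis rats at 10 weeks of age and were taken after 1 passage, the nerves from 2 rats and the skin from 1 other rat. The 3 samples of a type therefore cannot be 3 animals, and p-values measure only the spread between these samples, which may be technical. In the comparisons with Fb-Skn, the tissue, the rat and the body site cannot be told apart. Each library held 10084584 to 12310506 counts. Across genes, replicates varied with a common biological coefficient of variation of 8.25%. Levels are given as TPM, a measure scaled by gene length and library size that allows genes to be compared. Differences between types are log2 fold changes of the counts with their standard error (SE), and adjusted p-values come from the quasi-likelihood test of edgeR over 13273 genes. A gene was called at an adjusted p under 0.01, and a called gene with a log2 fold change above 2 or below -2 was a DE gene. With 3 samples per type an exact permutation test of a single gene could not give a p below 0.10, so no such test was used.

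The labelled cell type was checked against marker lists. The 7 fibroblast markers with an entry (of 8 listed) summed to 38780 to 38991 TPM in Fb-Epn, 31093 to 32089 in Fb-Par and 38908 to 40019 in Fb-Skn. The macrophage and leukocyte markers (15 of 16 with an entry) summed to 1436 to 1524 TPM in Fb-Epn, 287 to 317 in Fb-Par and 92.0 to 99.1 in Fb-Skn. All 13 of these markers that could be tested were higher in Fb-Epn than in either other type, and the T cell marker Cd3e was at 0 counts in every library. Schwann cell markers (7 of 8 with an entry) summed to 190 to 201 TPM in Fb-Epn, 262 to 269 in Fb-Par and 10.5 to 13.2 in Fb-Skn, where Sox10 and Erbb3 were at 0 counts. Endothelial markers (7 of 8 with an entry) stayed at or below 16.3 TPM in sum, mast cell markers (7) at or below 3.27 with 5 of them at 0 counts in each type, and keratinocyte markers (8) at or below 4.78. The part of these cells in the differences given next was not tested, and in bulk samples fewer cells of a type and less RNA per cell cannot be told apart.

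Summed over the 9 members, the level was 2818 to 2873 TPM in Fb-Epn, 617 to 638 in Fb-Par and 227 to 245 in Fb-Skn. The members did not follow a single order among the types. Il1rl1, Il1rn, Il18, Il33 and Il1r1 had their highest mean TPM in Fb-Epn, Il1a, Il1r2 and Il1rap had it in Fb-Skn, and Il1b was near 0 counts throughout. The plot of TPM by library shows these patterns side by side.

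**Figure D1:**
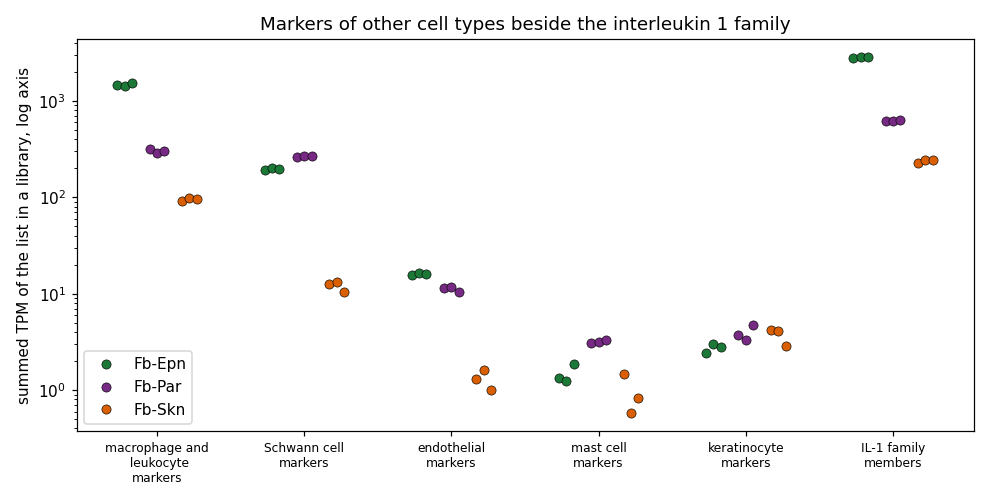
Summed TPM of each marker list and of the 9 members is plotted for every library on a log axis, coloured by type. The macrophage and leukocyte sum, the endothelial sum and the members' sum were highest in Fb-Epn and lowest in Fb-Skn, while the Schwann cell sum was highest in Fb-Par.

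**Figure D2:**
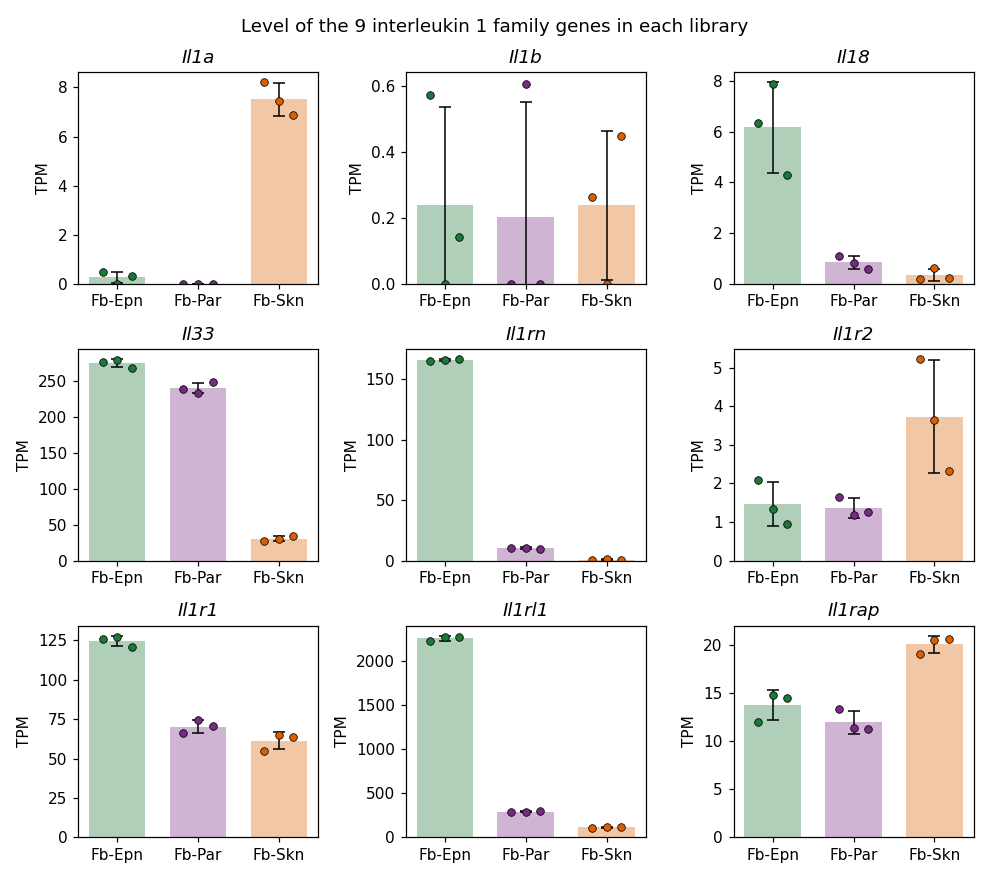
Each panel plots the TPM of 1 member on its own linear axis, with the mean of 3 libraries as a bar, the SD as the error bar and the libraries as points. Il1rl1 reached a mean of 2260 TPM in Fb-Epn, and Il1a was at 0 in all Fb-Par libraries.

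In the comparison of Fb-Epn with Fb-Skn, 8 of the 9 members were tested and all 8 were called, beside 43.9% of all tested genes. In Fb-Epn 5 members were higher (23.0% of all tested genes were) and 3 were lower (20.9%). Of these members 5 were DE genes, against 8.44% of all tested genes, with 4 higher (6.22%) and 1 lower (2.22%) in Fb-Epn. Il1b did not pass the expression filter, and Il1a, Il18 and Il1r2 passed it chiefly through the type in which they were high. The counts of this and the next comparisons therefore describe the members that passed and not the whole family. The median log2 fold change of the 8 was 1.96, and that of all tested genes was -0.003. In the comparison of Fb-Epn with Fb-Par, 5 of 8 members were called (38.8% of all tested genes), all of them higher in Fb-Epn (20.2% higher and 18.6% lower among all tested genes). Of these, 3 were DE genes (6.48% of all), likewise higher (4.09% higher and 2.39% lower among all). Their median log2 fold change was 1.84. That median was 0.52 when Il1a, which had no counts in Fb-Par and at most 3 in any Fb-Epn library, was set to a log2 fold change of 0. Fb-Par against Fb-Skn gave 6 of 8 called (45.6% of all), 3 higher (23.2% of all) and 3 lower (22.4%) in Fb-Par. Of these, 3 were DE genes (8.54% of all), 2 higher (5.86%) and 1 lower (2.67%), and the median was 0.60. The 3 comparisons share their samples.

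**Figure D3:**
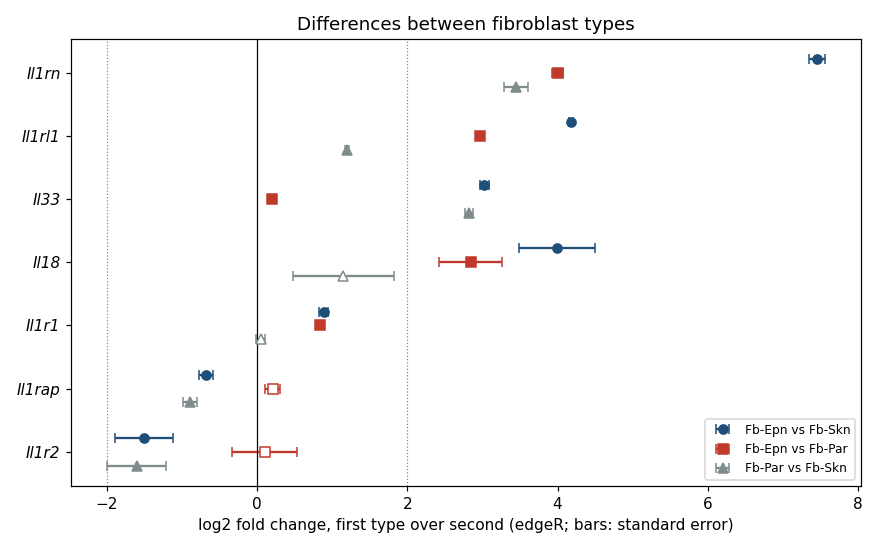
The log2 fold change (x axis, with its SE) of 7 members is shown for each comparison of types, with filled symbols for an adjusted p under 0.01 and dotted lines at log2 fold changes of 2 and -2. Il1rn had the largest value of those plotted, 7.45 between Fb-Epn and Fb-Skn, while Il1r2 and Il1rap lay below 0 in both comparisons with Fb-Skn.

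The promoters of the members that the results turn on are shown so that a reader can see what lies at their starts. They are RefSeq sequences of the rat build GRCr8, from 250 bases before to 50 bases after the transcript start, and 8 of the 9 members matched with 10 starts in all. The files use build rn6, so these positions are not those given for the genes further on. Capitals mark matches, on either strand, to TATAAA, to the AP-1 motif TGANTCA, to the C/EBP motif TTGCNNAA or to the κB motif, and no matches overlapped one another. Il1rl1 and Il1rn are shown for their excess in Fb-Epn, Il33 for both of its starts, Il1a for its excess in Fb-Skn, and Il1rap as the member with the most CpG sites.
Il1rl1, chr9:50203388-50203687, + strand: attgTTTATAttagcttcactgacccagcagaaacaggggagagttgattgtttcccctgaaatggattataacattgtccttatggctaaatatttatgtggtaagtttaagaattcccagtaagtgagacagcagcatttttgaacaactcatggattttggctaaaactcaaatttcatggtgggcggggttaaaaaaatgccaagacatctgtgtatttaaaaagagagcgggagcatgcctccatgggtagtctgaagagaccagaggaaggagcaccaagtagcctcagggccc
Il1rn, chr3:27520072-27520371, + strand: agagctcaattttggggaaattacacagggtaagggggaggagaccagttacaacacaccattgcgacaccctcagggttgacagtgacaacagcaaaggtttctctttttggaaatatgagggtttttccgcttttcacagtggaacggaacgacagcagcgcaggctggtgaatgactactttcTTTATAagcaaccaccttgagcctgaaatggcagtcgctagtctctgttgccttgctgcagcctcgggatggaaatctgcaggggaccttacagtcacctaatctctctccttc
Il33 first start, chr1:237115323-237115622, + strand: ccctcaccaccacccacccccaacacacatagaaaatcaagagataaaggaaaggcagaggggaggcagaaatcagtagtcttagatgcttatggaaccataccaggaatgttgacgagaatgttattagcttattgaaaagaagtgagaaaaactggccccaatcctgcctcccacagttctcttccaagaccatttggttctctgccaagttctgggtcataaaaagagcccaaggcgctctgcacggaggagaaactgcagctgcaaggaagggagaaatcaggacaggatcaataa
Il33 second start, chr1:237134696-237134995, + strand: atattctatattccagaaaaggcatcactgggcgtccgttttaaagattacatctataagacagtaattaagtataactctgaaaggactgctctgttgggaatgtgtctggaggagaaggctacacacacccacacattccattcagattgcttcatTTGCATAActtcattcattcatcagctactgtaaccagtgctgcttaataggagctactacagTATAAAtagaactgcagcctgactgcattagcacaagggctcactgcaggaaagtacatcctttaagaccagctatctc
Il1a, chr3:136989968-136990267, - strand: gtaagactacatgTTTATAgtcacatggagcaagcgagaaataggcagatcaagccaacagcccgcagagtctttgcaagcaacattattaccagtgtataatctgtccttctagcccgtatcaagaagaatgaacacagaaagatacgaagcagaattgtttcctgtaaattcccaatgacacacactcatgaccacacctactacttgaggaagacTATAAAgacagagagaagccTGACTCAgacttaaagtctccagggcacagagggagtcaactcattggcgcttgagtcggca
Il1rap, chr11:87704293-87704592, - strand: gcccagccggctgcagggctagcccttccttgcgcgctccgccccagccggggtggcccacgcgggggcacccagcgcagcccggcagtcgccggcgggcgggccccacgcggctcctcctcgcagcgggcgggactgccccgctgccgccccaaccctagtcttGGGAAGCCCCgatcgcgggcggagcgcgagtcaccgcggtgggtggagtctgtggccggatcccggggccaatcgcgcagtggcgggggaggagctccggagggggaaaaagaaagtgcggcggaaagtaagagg

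Positions in these windows count from 1 at the start base, the base before it being -1, and give the leftmost base of a match. Il1a held TATAAA at -32 and again at -237, with an AP-1 match at -12. The second start of Il33 held TATAAA at -29 and a C/EBP match at -92, while the first start held none of the 4 motifs. Il1rn held TATAAA at -64 and Il1rl1 at -246. The Il1rap start shown held a κB match at -85, which lies in the window of its other start as well, at -166. Of the starts not printed, Il1r1 held a κB match at -135, Il18 an AP-1 match at 6, and Il1b TATAAA at -60 with a C/EBP match at 34. Among all 33469 promoters of this length, 14.2% held TATAAA, 7.33% the AP-1 motif, 10.6% the C/EBP motif and 4.18% the κB motif. The GC content of the Il1rap start shown was 75.3% with 36 CpG dinucleotides, and that of Il1r1 was 65.3%. The windows of the other 6 matched members had 39.3% to 49.0% GC, below the median of 51.7% over all promoters. A match is a description of these letters only.

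Among the ligands, Il33 (ENSRNOG00000016456, chromosome 1 of rn6 from 248132090 to 248147029, + strand) had the highest level. Its TPM was 277, 280 and 269 in the Fb-Epn libraries, 239, 234 and 248 in Fb-Par, and 27.5, 30.2 and 34.6 in Fb-Skn. Every nerve-derived library lay far above every Fb-Skn library, and the Fb-Epn libraries lay above the Fb-Par libraries by a small margin. The means were 275 ± 5.90 TPM (SD, n = 3) for Fb-Epn, 240.5 ± 7.22 for Fb-Par and 30.7 ± 3.61 for Fb-Skn. The log2 fold change was 3.03 (SE 0.058, edgeR adjusted p = 7.8e-15) for Fb-Epn over Fb-Skn and 2.82 (SE 0.058, edgeR adjusted p = 1.4e-14) for Fb-Par over Fb-Skn. Between the nerve-derived types it was 0.21 (SE 0.049, edgeR adjusted p = 0.0029). That last call was lost on leaving out Fb-Epn replicate 1 (adjusted p = 0.013), Fb-Epn replicate 2 (0.014), Fb-Par replicate 1 (0.014) or Fb-Par replicate 2 (0.017), and with limma on TPM (0.044 and 0.049 at pseudocounts of 1 and 0.1). The genes with the pattern closest to Il33 were Serpine2 (Pearson's r = 0.9994), Gpc6 (0.9988) and Galnt16 (0.9985) over the 9 libraries. The macrophage and leukocyte, Schwann cell and endothelial sums were likewise higher in both nerve-derived types than in Fb-Skn. The part of such cells in the Il33 counts was not tested.

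Il18 (ENSRNOG00000009848, chromosome 8 of rn6 from 54993859 to 55016299, + strand) encodes a ligand that caspase 1 cleaves into its active form. It had 6.33, 7.87 and 4.30 TPM in Fb-Epn, 1.09, 0.837 and 0.597 in Fb-Par, and 0.182, 0.626 and 0.207 in Fb-Skn. Behind these values stood 32, 45 and 22 counts in Fb-Epn, 6, 4 and 3 in Fb-Par, and 1, 3 and 1 in Fb-Skn. Fb-Epn lay above both other types in every library, whereas the Fb-Par and Fb-Skn libraries overlapped. Fb-Epn exceeded Fb-Par by a log2 fold change of 2.84 (SE 0.42, edgeR adjusted p = 5.2e-05). Against the few counts of Fb-Skn the ratio was 17.1 with an exact 95% counting interval of 7.07 to 53.7 (edgeR adjusted p = 9.1e-06). The ratio of Fb-Par to Fb-Skn was 2.31 with an interval of 0.772 to 8.27 (edgeR adjusted p = 0.16), so a difference was not detectable at this depth. Such intervals cover counting error only. The fitted log2 fold change for Fb-Epn over Fb-Skn was 3.99 with all libraries and 4.70 without Fb-Skn replicate 2. Fgr (Pearson's r = 0.9957), Wdr90 (0.9927) and Ppig (0.9872) had the patterns most like Il18. The macrophage and leukocyte sum was likewise highest in Fb-Epn, and the part of such cells in the Il18 counts was not tested. Il18 overlaps Bco2 and Tex12 on the opposite strand. Bco2 had 10, 11 and 18 counts in Fb-Epn, 0, 2 and 0 in Fb-Par, and 4, 1 and 2 in Fb-Skn, so it was highest in the same type as Il18, and Tex12 had at most 3 in any library. Strand use in the counting is not given in the sources used here, so reads of these genes cannot be told apart from those of Il18 with certainty.

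Il1a (ENSRNOG00000004575, chromosome 3 of rn6 from 121825412 to 121836086, - strand) encodes a ligand that is active without cleavage, and it was a transcript of Fb-Skn. It had 57, 45 and 42 counts in the Fb-Skn libraries, equal to 8.22, 7.44 and 6.88 TPM and a mean of 7.51 ± 0.674 (SD, n = 3). Fb-Epn had 3, 0 and 2 counts, and all 3 Fb-Par libraries had 0. All Fb-Skn libraries thus lay above all nerve-derived ones. The ratio of Fb-Skn to Fb-Epn was 33.4 with an exact 95% counting interval of 14.0 to 104 (edgeR adjusted p = 4.0e-06). The fitted log2 fold change of Fb-Epn against Fb-Skn, -4.95 with all libraries, was -5.64 without Fb-Epn replicate 1 and -4.35 without Fb-Epn replicate 2. Fb-Skn was at least 17.9-fold higher than Fb-Par, taken against a floor of 3 counts per library (edgeR adjusted p = 1.0e-06). Fb-Epn and Fb-Par were both at or under that floor, and no fold is given between them (edgeR adjusted p = 0.046, and 0.0094 without Fb-Epn replicate 2). Dpep1 (Pearson's r = 0.9976), Tbx1 (0.9968) and Ppic (0.9948) had the patterns most like Il1a. The 8 keratinocyte markers had no common order of types. Krt14 had 17, 9 and 10 counts in Fb-Skn and at most 1 elsewhere, while Krt10, the one marker tested and called in no comparison, had 32, 30 and 20 in Fb-Skn, 42, 32 and 43 in Fb-Par, and 23, 31 and 26 in Fb-Epn. Cdh1 and Epcam had at most 6 counts in any library and at most 1 in Fb-Skn, Krt5 and Tp63 at most 2 in any, and Krt1 and Dsg3 were at 0. The part of such cells in the Il1a counts was not tested.

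Il1b (ENSRNOG00000004649, chromosome 3 of rn6 from 121876263 to 121882726, - strand) encodes the ligand best known from activated macrophages. It had 4, 0 and 1 counts in Fb-Epn, 0, 4 and 0 in Fb-Par, and 2, 0 and 3 in Fb-Skn. The types overlapped, and the highest library reached 0.604 TPM. Il1b did not pass the filter, and when it was tested among all genes with at least 1 count the edgeR adjusted p was 0.84 to 0.97 over the 3 comparisons. The macrophage markers in Fb-Epn ranged widely, with 957 ± 24.6 TPM (SD, n = 3) of Lyz2 and 153 ± 7.42 of Cd68. Csf1r had 13.8 ± 0.916 TPM there, Cd163 8.81 ± 0.267 and Adgre1 3.05 ± 0.260. The part of such cells in the Il1b counts was not tested. A difference of Il1b between types was not detectable at this depth.

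Il1rn (ENSRNOG00000005871, chromosome 3 of rn6 from 1452644 to 1468614, + strand) encodes the IL-1 receptor antagonist, which occupies Il1r1 without bringing in the co-receptor. Its TPM was 165, 166 and 167 in Fb-Epn, 10.8, 10.5 and 9.92 in Fb-Par, and 0.720, 1.24 and 0.613 in Fb-Skn. The 3 types formed 3 separate steps with no overlap between libraries, and as a ratio this was the widest range of any member with counts in all libraries. The log2 fold change was 7.45 (SE 0.11, edgeR adjusted p = 5.0e-16) for Fb-Epn over Fb-Skn, which is 175-fold. It was 4.00 (SE 0.074, edgeR adjusted p = 5.2e-15) for Fb-Epn over Fb-Par and 3.45 (SE 0.16, edgeR adjusted p = 1.4e-10) for Fb-Par over Fb-Skn. By mean TPM, Il1rn ranked 957th of all genes in Fb-Epn, 8720th in Fb-Par and 13073rd in Fb-Skn. In Fb-Epn its mean of 166 ± 0.877 TPM (SD, n = 3) was above the 125 ± 3.40 TPM of Il1r1, the receptor it blocks, while in both other types it was below that receptor. The tested genes with the pattern most like it were Laptm5 (Pearson's r = 0.9991), Lyz2 (0.9987) and the collagen gene Col14a1 (0.9984), of which the first 2 are on the macrophage and leukocyte list. That list had the same order of types as Il1rn, and its part in the result was not tested.

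Il1rl1 (ENSRNOG00000014835, chromosome 9 of rn6 from 47134034 to 47182170, + strand), the IL-33 receptor, was the most abundant member in all 3 types. It had 2227, 2276 and 2277 TPM in Fb-Epn, 284, 289 and 297 in Fb-Par, and 111, 116 and 113 in Fb-Skn. No libraries of different types overlapped. The means were 2260 ± 28.2 TPM (SD, n = 3), 290.1 ± 6.10 and 113 ± 2.39. Fb-Epn exceeded Fb-Skn by a log2 fold change of 4.18 (SE 0.028, edgeR adjusted p = 3.2e-19) and Fb-Par by 2.97 (SE 0.027, edgeR adjusted p = 1.3e-17). Fb-Par exceeded Fb-Skn by 1.20 (SE 0.027, edgeR adjusted p = 2.9e-14). By mean TPM it was the 38th gene of Fb-Epn, the 530th of Fb-Par and the 1423rd of Fb-Skn, and in Fb-Epn it made up 0.364% to 0.374% of all counts. Il1rl1 accounted for 79.1% to 79.8% of the summed TPM of the 9 members in Fb-Epn, 46.1% to 46.5% in Fb-Par and 46.6% to 48.9% in Fb-Skn. Mast cells are known for this receptor, and of the 7 mast cell markers Cpa3, Fcer1a, Ms4a2, Cma1 and Tpsb2 were at 0 counts in every library. Kit, which other cells express too, had 35, 35 and 50 counts in Fb-Epn, 86, 69 and 86 in Fb-Par, and 2, 1 and 1 in Fb-Skn. Hdc had at most 4 counts in any nerve-derived library and 18, 6 and 9 in Fb-Skn. The macrophage and leukocyte sum had the same order of types as Il1rl1, and the part of these cells in the result was not tested. The gene gives rise to a membrane receptor and to a soluble form that binds IL-33 without signalling, and counts per gene do not separate them. The patterns most like it were those of Lilrb4 (Pearson's r = 0.9992), Tgfbr3 (0.9989) and Mfap5 (0.9982).

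Ligand and receptor of the IL-33 pair had the same order of types, highest in Fb-Epn and lowest in Fb-Skn. The gap between the nerve-derived types was 2.97 on the log2 scale for Il1rl1 and 0.21 for Il33, as given for each gene. Il1rl1 exceeded Il33 in TPM in every one of the 9 libraries.

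Il1r1 (ENSRNOG00000014504, chromosome 9 of rn6 from 46962288 to 47036670, + strand), the signalling receptor for IL-1α and IL-1β, was present in all types at moderate levels. Its TPM was 126, 127 and 121 in Fb-Epn, 66.0, 74.2 and 70.5 in Fb-Par, and 55.0, 65.2 and 63.7 in Fb-Skn. Fb-Epn stood above both other types, whose libraries lay close together without overlapping (66.0 against 65.2 at their nearest). The log2 fold change was 0.89 (SE 0.056, edgeR adjusted p = 5.7e-09) for Fb-Epn over Fb-Skn and 0.84 (SE 0.056, edgeR adjusted p = 1.0e-08) for Fb-Epn over Fb-Par, so it was called without being a DE gene. Between Fb-Par and Fb-Skn the value was 0.05 (SE 0.057, edgeR adjusted p = 0.51), and -0.01 without Fb-Skn replicate 1. Its closest patterns were those of Amer1, Spcs3 and Ddit4l (Pearson's r of 0.9955 to 0.9960).

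Il1rap (ENSRNOG00000001928, chromosome 11 of rn6 from 77463954 to 77593207, - strand), the co-receptor shared by Il1r1 and Il1rl1, was highest in Fb-Skn. It had 12.0, 14.8 and 14.5 TPM in Fb-Epn, 13.4, 11.4 and 11.3 in Fb-Par, and 19.1, 20.6 and 20.7 in Fb-Skn. The Fb-Skn libraries lay above all nerve-derived libraries, which overlapped among themselves. Its log2 fold change was -0.68 (SE 0.096, edgeR adjusted p = 3.1e-05) for Fb-Epn against Fb-Skn and -0.89 (SE 0.098, edgeR adjusted p = 2.2e-06) for Fb-Par against Fb-Skn. Between the nerve-derived types it was 0.21 (SE 0.10, edgeR adjusted p = 0.10). On the TPM scale Il1rap was below both receptors that use it in every library, with means of 13.8 ± 1.54 (SD, n = 3) for Fb-Epn, 12.0 ± 1.19 for Fb-Par and 20.1 ± 0.893 for Fb-Skn. Dpy19l1, Amd1 and Elk3 had the most similar patterns (Pearson's r of 0.978 to 0.988).

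Il1r2 (ENSRNOG00000014378, chromosome 9 of rn6 from 46840992 to 46881264, + strand), the decoy receptor that binds IL-1 without signalling, was scarce. It had 15, 11 and 7 counts in Fb-Epn, 13, 8 and 9 in Fb-Par, and 41, 25 and 16 in Fb-Skn, or means of 1.46 ± 0.567 TPM (SD, n = 3), 1.36 ± 0.254 and 3.73 ± 1.46. The Fb-Skn libraries lay above the others in TPM, but the lowest of them (2.32) was close to the highest Fb-Epn library (2.08). The log2 fold change was -1.50 (SE 0.39, edgeR adjusted p = 0.0043) for Fb-Epn against Fb-Skn and -1.60 (SE 0.39, edgeR adjusted p = 0.0030) for Fb-Par against Fb-Skn. The first call was lost without Fb-Epn replicate 2 (adjusted p = 0.020), Fb-Epn replicate 3 (0.024), Fb-Skn replicate 1 (0.039) or Fb-Skn replicate 2 (0.013), and with limma on TPM at a pseudocount of 0.1 (0.010). The second was lost without Fb-Par replicate 2 (0.014), Fb-Par replicate 3 (0.015) or Fb-Skn replicate 1 (0.027). Between Fb-Epn and Fb-Par the value was 0.10 (SE 0.44, edgeR adjusted p = 0.87). Mvk had the most similar pattern (Pearson's r = 0.954), followed by AC120310.1 and Ccdc124. All of these likenesses are descriptions over 9 libraries that fall into 3 types, and they say nothing of shared function.

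Il1r2, Il1r1 and Il1rl1 lie in a stretch of chromosome 9 that spans 417.5 kb of rn6 and holds 9 genes of the matrices, with Il1rl2, Il18r1 and Il18rap as the other receptor genes. The neighbours along it did not share an order of types. Il1rl2, the IL-36 receptor, lies between Il1r1 and Il1rl1 and was highest in Fb-Skn, at 211, 226 and 225 TPM, against 91.0, 88.0 and 93.0 in Fb-Epn and 47.6, 47.9 and 47.0 in Fb-Par. Its log2 fold change was -1.42 (SE 0.034, edgeR adjusted p = 9.0e-14) for Fb-Epn against Fb-Skn and -2.36 (SE 0.036, edgeR adjusted p = 4.7e-16) for Fb-Par against Fb-Skn. Il1r1 and Il1rl1 on either side of it were highest in Fb-Epn, and Il1r2 at the end of the stretch was highest in Fb-Skn.

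**Figure D4:**
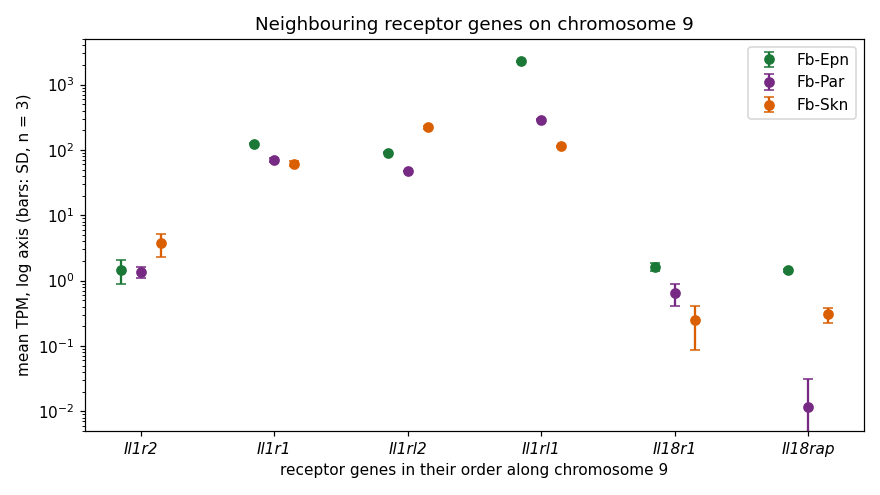
Mean TPM (log axis) is plotted for the 6 receptor genes in their order along chromosome 9, with the SD as error bars and a colour for each type. Il1rl1 peaked in Fb-Epn and its neighbour Il1rl2 in Fb-Skn, at a mean of 221 TPM.

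Il18r1 and Il18rap, the receptor pair for IL-18, had few reads and, like Il18, their highest level in Fb-Epn. Il18r1 had 29, 42 and 31 counts in Fb-Epn, 10, 17 and 11 in Fb-Par, and 9, 4 and 2 in Fb-Skn, and Fb-Epn was above Fb-Skn by a log2 fold change of 2.53 (SE 0.43, edgeR adjusted p = 1.5e-04). Il18rap had 36, 43 and 41 counts in Fb-Epn, 1, 0 and 0 in Fb-Par, and 8, 6 and 10 in Fb-Skn. The ratio of Fb-Epn to Fb-Par for Il18rap was 117 with a counting interval of 20.5 to 4642 (edgeR adjusted p = 2.6e-07). Il18bp, which captures IL-18 in solution, had 18 ± 5.37 TPM (SD, n = 3) for Fb-Epn, 10.9 ± 0.440 for Fb-Par and 5.33 ± 0.904 for Fb-Skn. It was above Fb-Skn in Fb-Epn by a log2 fold change of 1.62 (SE 0.24, edgeR adjusted p = 5.2e-05) and in Fb-Par by 0.88 (SE 0.25, edgeR adjusted p = 0.0082).

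The wider pathway was followed in 4 lists that hold 74 genes, of which 73 had an entry and 57 were tested. For Fb-Epn against Fb-Skn, 22 were called higher and 19 lower, where 23.0% and 20.9% of all tested genes were. For Fb-Epn against Fb-Par the counts were 30 and 6 (20.2% and 18.6% of all), and for Fb-Par against Fb-Skn 11 and 25 (23.2% and 22.4% of all). The list of other ligands, receptors and binding proteins had 12 entries. Of these, 5 were tested: Il18r1, Il18rap, Il18bp, Il1rl2 and Il1f10. Il18r1, Il18rap and Il1f10 passed the expression filter chiefly through Fb-Epn, where they were high, so the counts of called genes describe those that passed. Il36a, Il36g and Il36rn were at 0 counts in every library, and Sigirr, an inhibitory receptor, had at most 6. Il1f10, which encodes IL-38, had 4.75 ± 1.63 TPM (SD, n = 3) for Fb-Epn, 1.83 ± 0.312 for Fb-Par and 0.846 ± 0.365 for Fb-Skn, and was called in Fb-Epn over Fb-Skn (log2 fold change 2.32, SE 0.45, edgeR adjusted p = 5.5e-04).

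The signalling list, from Myd88 and the IRAK kinases to the NF-κB subunits, was called about as often as genes at large. All 22 genes were tested, and 9, 9 and 8 were called for Fb-Epn against Fb-Skn, Fb-Epn against Fb-Par and Fb-Par against Fb-Skn, beside 43.9%, 38.8% and 45.6% of all tested genes. The largest called change was that of Relb, given next, so that no gene of the list was a DE gene. The list's median log2 fold change was -0.04, -0.07 and 0.04 in the same order of comparisons. Myd88 had 40.5 ± 3.67 TPM (SD, n = 3) for Fb-Epn, 24.99 ± 2.39 for Fb-Par and 19.1 ± 1.70 for Fb-Skn, and was above Fb-Skn in Fb-Epn by a log2 fold change of 0.94 (SE 0.097, edgeR adjusted p = 1.2e-06). Relb, a subunit of NF-κB, was highest in Fb-Skn at 20.7 ± 1.17 TPM (SD, n = 3), with 13.1 ± 2.01 in Fb-Epn and 8.14 ± 1.14 in Fb-Par. Its log2 fold change was -1.50 (SE 0.14, edgeR adjusted p = 3.7e-07) for Fb-Par against Fb-Skn.

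Genes known as targets of IL-1 and NF-κB differed most between Fb-Par and the other types by their median. Of 22 tested, 18 were called higher and 2 lower in Fb-Epn against Fb-Par (20.2% and 18.6% of all tested genes), with a median log2 fold change of 2.32. Against Fb-Skn, Fb-Par had 5 called higher and 14 lower (23.2% and 22.4% of all), with a median of -1.39, or -1.16 with genes at 0 counts set to their bound. In Fb-Epn 12 were higher and 8 lower than in Fb-Skn (23.0% and 20.9% of all), with a median of 0.76. Some targets passed the expression filter chiefly through the type in which they were high, such as Cxcl6 through Fb-Epn and Mmp3 through Fb-Skn. These counts and medians therefore describe the genes that passed and not the whole list. The list holds chemokines that macrophages make as well, and the part of such cells in these counts was not tested. The median of all tested genes was within 0.02 of 0 in each comparison.

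Individual targets took different orders among the types. The chemokine gene Ccl7 had 808 ± 12.7 TPM (SD, n = 3) for Fb-Epn, 25.8 ± 2.80 for Fb-Par and 53.2 ± 4.88 for Fb-Skn, with a log2 fold change of 4.97 (SE 0.073, edgeR adjusted p = 4.3e-16) between the nerve-derived types. Lcn2, which encodes an iron-sequestering protein, had 33, 37 and 39 counts in Fb-Epn, 0 in every Fb-Par library, and 155, 124 and 127 in Fb-Skn. It was at least 11.7-fold higher in Fb-Epn and at least 50.5-fold higher in Fb-Skn than in Fb-Par. Another chemokine gene, Ccl20, had 288, 351 and 318 counts in Fb-Epn, 0, 0 and 1 in Fb-Par, and 205, 165 and 149 in Fb-Skn. Cxcl6 had 19, 34 and 32 counts in Fb-Epn, none in Fb-Par, and 0, 2 and 5 in Fb-Skn. The adhesion molecule gene Vcam1 had 152, 162 and 158 counts in Fb-Epn, 40 in sum over the Fb-Par libraries, and 3, 2 and 0 in Fb-Skn. Its ratio of Fb-Par to Fb-Skn was 7.10 with a counting interval of 2.80 to 23.0 (edgeR adjusted p = 0.0011). By contrast Mmp3, a matrix protease gene, had 158, 169 and 143 counts in Fb-Skn against at most 16 in any nerve-derived library. Ptges, of prostaglandin E2 synthesis, had 121 ± 1.14 TPM (SD, n = 3) in Fb-Skn, 21.5 ± 2.33 in Fb-Par and 11.4 ± 1.86 in Fb-Epn. The complement gene C3 was likewise highest in Fb-Skn, at 3.50 ± 0.206 TPM (SD, n = 3) against 0.148 ± 0.0875 in Fb-Par. The 2 targets called lower in Fb-Epn than in Fb-Par were Ptges and Icam1, the latter named after its values were seen, at 111 ± 2.47 TPM (SD, n = 3) in Fb-Epn and 236 ± 2.40 in Fb-Par.

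**Figure D5:**
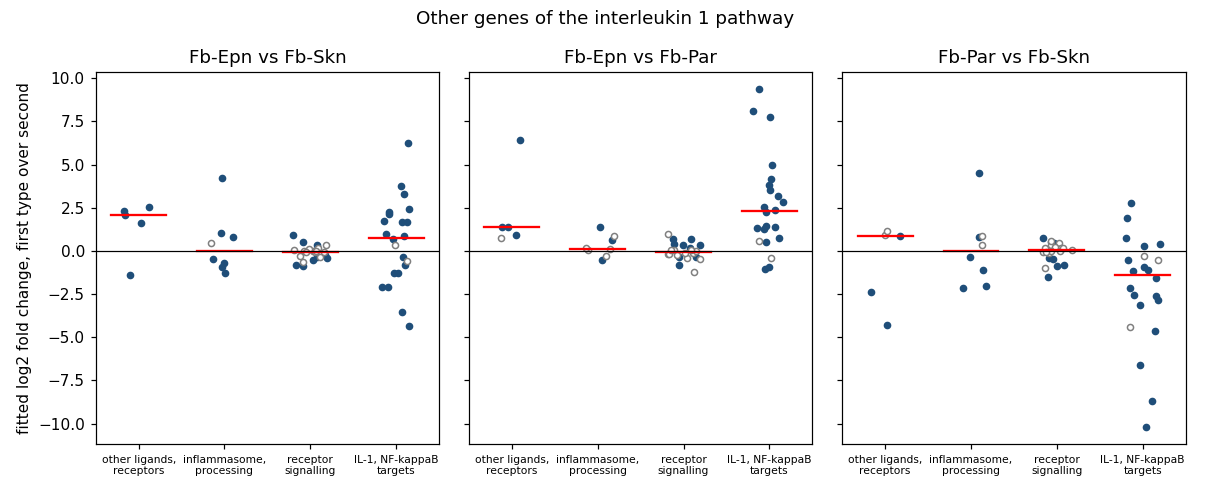
The fitted log2 fold change (y axis) of each tested gene is shown for the 4 pathway lists in each comparison, filled where the adjusted p was under 0.01 and with a red line at the median. The targets lay mostly above 0 for Fb-Epn against Fb-Par and mostly below 0 for Fb-Par against Fb-Skn, the signalling genes lay near 0 in all 3, and points beyond about 7 rest on types with 0 or 1 counts.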

How the data were processed

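Poly(A) RNA of 9 samples was made into directional libraries and sequenced as paired ends of 150 bp. Per the submitters' processing notes and the study's methods, reads were checked with FastQC 0.11.7, trimmed with Trimmomatic 0.38, aligned to rn6 with HISAT2 2.1.0 and counted with featureCounts 1.6.3. How strand was used in counting, and which annotation release, is not given in the sources used here. The authors deposited raw counts per gene, and the authors deposited TPM for the same genes, which were used as they stand to show levels. The deposited FPKM table was not used.

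Counts were tested with edgeR 4.0.16 in R 4.3.3 (TMM factors, 0.955 to 1.03, the default expression filter, quasi-likelihood F test). A single model held all 9 libraries, the 3 pairs of types were its contrasts, and Benjamini-Hochberg adjustment ran over 13273 genes. Samples were grouped by their labels, and no replicate numbers were treated as pairs. Replicates differed by more than sampling noise (chi-square per degree of freedom of 3.45 to 5.86), so no library was taken for a copy of another, though this spread may be technical. In types with at most 3 counts per library, ratios have exact 95% binomial intervals or, against 0 counts, are bounds at 3 counts per library. Likeness was Pearson's r of log2(TPM + 1). The fit was tested on simulated data for Fb-Epn against Fb-Skn, with 13098 genes past the filter. There 100 of 100 genes changed 4-fold and 100 of 100 changed 2-fold were recovered with 2 false calls. The changed genes were drawn only from genes with more counts than Il1a, Il1b, Il18 or Il1r2, and all genes had the same simulated spread. The recovery therefore does not extend to members with few counts.

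The members and lists were chosen with earlier results of these data known. The text names all members and the receptors and processing genes of the members. From each pathway list it draws on the up to 4 called genes with the largest change in a comparison. It also names the 3 genes most like each member that had a mean of at least 1 TPM in a type. Alternatives were DESeq2 1.42.0, limma 3.58.1 on log2 TPM, other scalings and filters, only the types compared, a replicate block, and leaving out each library. Plots used matplotlib 3.10.9, and tables used pandas 2.3.3, scipy 1.17.1 and numpy 2.4.6 under Python 3.11.15.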

Additional observations from a re-analysis of the deposited data

How the results depend on the processing

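Of 18 alternatives, the stricter filter moved the members' counts most. When every library had to hold at least 10 counts of a gene, 4 members could be tested. Il1a, Il1b, Il18, Il1rn and Il1r2 could not. For Fb-Epn against Fb-Skn, Fb-Epn against Fb-Par and Fb-Par against Fb-Skn, 4, 3 and 3 were called and 2, 1 and 1 were DE genes. In the same order, 4897, 4433 and 5105 of all genes that passed this filter were called. How many genes passed it is not given here, so these counts provide no share to set beside those of the members. Leaving out 1 library at a time, 7 to 8, 4 to 5 and 5 to 6 members were called, and 5 to 5, 3 to 4 and 3 to 3 were DE genes. Of all tested genes, 5178 to 5829, 4449 to 5220 and 5370 to 5989 were then called. With all libraries in the model, 43.9%, 38.8% and 45.6% of all tested genes were called, and 8.44%, 6.48% and 8.54% were DE genes. The log2 fold change of Il1r1 for Fb-Par over Fb-Skn ranged from -0.011 (without Fb-Skn replicate 1) to 0.097, and that of Il1r2 for Fb-Epn over Fb-Par from -0.22 (without Fb-Epn replicate 1) to 0.32, so both changed sign. Neither was called. Samples with equal replicate numbers showed no sign of pairing. The correlations of their deviations were -0.080 to 0.020 over 9 pairs, beside -0.045 to 0.089 over the 18 pairs with unequal numbers. Such a check could miss a pairing. A model with the replicate block called 5580, 4859 and 5799 of all tested genes and 8, 5 and 6 members, so it changed no count of members. Scaling by library size only moved the median of all genes to 0.09 and 0.08 in the comparisons with Fb-Skn, and limma on TPM to between 0.12 and 0.14. Over all members, comparisons and alternatives, 14 values lost the call and 1 gained it, the latter Il1a for Fb-Epn against Fb-Par. Depth limits Il1a, Il1b, Il18 and Il1r2 most.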

Other observations

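Genes that process IL-1β and IL-18 had no common direction among the types. Of 8 tested inflammasome and processing genes, 3 were called higher and 4 lower in Fb-Epn than in Fb-Skn, 2 and 1 in Fb-Epn against Fb-Par, and 2 and 4 in Fb-Par against Fb-Skn. Of all tested genes, 43.9%, 38.8% and 45.6% were called in these comparisons. Nlrp3, the sensor of the best-known inflammasome, was a transcript of the nerve-derived types, with 7.47 ± 0.311 TPM (SD, n = 3) for Fb-Epn, 9.12 ± 0.327 for Fb-Par and 0.351 ± 0.0484 for Fb-Skn. Its log2 fold change was 4.24 (SE 0.17, edgeR adjusted p = 2.5e-11) for Fb-Epn over Fb-Skn and 4.52 (SE 0.17, edgeR adjusted p = 9.1e-12) for Fb-Par over Fb-Skn, while between the nerve-derived types it was -0.28 (SE 0.11, edgeR adjusted p = 0.048). Casp1, the protease that cleaves both ligands, was lowest in Fb-Par, with 13.0 ± 1.58 TPM (SD, n = 3) for Fb-Epn, 5.01 ± 0.340 for Fb-Par and 18.8 ± 1.26 for Fb-Skn. Fb-Epn exceeded Fb-Par by a log2 fold change of 1.38 (SE 0.15, edgeR adjusted p = 2.7e-06) and lower in Fb-Par than in Fb-Skn, at -2.06 (SE 0.15, edgeR adjusted p = 2.3e-08). Casp4, Gsdmd, the pore-forming substrate of these caspases, and Nlrp1a had their highest level in Fb-Skn, at 144 ± 4.90, 126 ± 5.18 and 3.18 ± 0.920 TPM (SD, n = 3). Pycard, the adaptor between sensor and caspase, had 6.90 ± 0.922 TPM (SD, n = 3) for Fb-Epn, 6.19 ± 1.03 for Fb-Par and 3.07 ± 0.440 for Fb-Skn. Fb-Epn was above Fb-Skn for Pycard by a log2 fold change of 1.02 (SE 0.27, edgeR adjusted p = 0.0055).

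Il36b was not tested, with 6, 5 and 8 counts in Fb-Epn, 1 in every Fb-Par library and 0 in every Fb-Skn library. Map3k7, a kinase of the signalling list named after its values were seen, had 39, 184 and 43 counts in the Fb-Par libraries, so that replicate 2 stood apart from the others, and it was called in no comparison.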
